A study of Mus musculus with 16 samples.

Results

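Regulators of G-protein signalling (RGS proteins) were followed through 2 tissues of mice, liver and the epididymal fat depot (eWAT), in wild-type animals and in animals null for Fgf1, a secreted growth factor. The set holds 10 genes (Rgs1, Rgs2, Rgs3, Rgs4, Rgs5, Rgs10, Rgs14, Rgs16, Rgs18 and Rgs19) of 16593 named genes on the array, measured by 20 probes. These genes were chosen by measured values: Rgs1 and Rgs16 differed by genotype in liver and Rgs1 in eWAT. Differences by genotype are therefore given as a description of the values that picked the set, with no test. Another 10 genes with an Rgs symbol on the array (Rgs6, Rgs7, Rgs8, Rgs9, Rgs12, Rgs13, Rgs17, Rgs20, Rgs7bp and Rgs9bp) are given for comparison.

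The mice were 24 weeks old, and for 16 weeks their food had been either normal chow or high in fat (HFD). Tissue, genotype and diet gave 8 groups: wild-type on chow, wild-type on HFD, Fgf1 null on chow and Fgf1 null on HFD, each in eWAT and in liver. Each group was 1 RNA sample hybridised to 2 arrays that the labels call technical replicates, 16 arrays in all, and the labels give neither strain nor sex nor whether mice were pooled. The spread between the 2 arrays is therefore technical, and differences between 2 groups carry a technical standard error and no p-value.

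An RGS protein binds the active, GTP-loaded alpha subunit of a heterotrimeric G protein and speeds GTP hydrolysis, which shortens the signal from a G-protein-coupled receptor. Most members of the R4 subfamily (Rgs1, Rgs2, Rgs4, Rgs5, Rgs16 and Rgs18, with the longer Rgs3) consist of little more than the RGS domain. Members of the R7 subfamily (Rgs6, Rgs7 and Rgs9) work as partners of the beta subunit Gnb5. In leukocytes RGS proteins are known for damping chemokine receptors, in vessels for limiting vasoconstrictor signals, and in liver Rgs16 is known as a gene induced by glucose.

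The RefSeq promoter table (build GRCm38.p6) held a window for 7 of the 10 genes, and the 250 bases before the start are shown for 4 of them. Rgs16 and Rgs10 are shown because they differed between the tissues in opposite directions in the test below, and Rgs4 and Rgs5 because they are neighbours on chromosome 1 that were both higher in wild-type eWAT on HFD. Capitals mark matches, on either strand, to the PU.1 core GAGGAA, the E-box CACGTG, the cAMP response element TGACGTCA or the AP-1 motif TGANTCA. The windows are chr1:153740103-153740352 (plus strand) for Rgs16, chr7:128418173-128418422 (minus strand) for Rgs10, chr1:169747643-169747892 (minus strand) for Rgs4 and chr1:169655251-169655500 (plus strand) for Rgs5.
Rgs16: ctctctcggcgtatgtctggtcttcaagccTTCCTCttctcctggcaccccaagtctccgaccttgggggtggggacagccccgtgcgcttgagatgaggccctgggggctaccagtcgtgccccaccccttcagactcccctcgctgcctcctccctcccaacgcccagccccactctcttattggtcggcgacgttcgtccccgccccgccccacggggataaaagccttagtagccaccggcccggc
Rgs10: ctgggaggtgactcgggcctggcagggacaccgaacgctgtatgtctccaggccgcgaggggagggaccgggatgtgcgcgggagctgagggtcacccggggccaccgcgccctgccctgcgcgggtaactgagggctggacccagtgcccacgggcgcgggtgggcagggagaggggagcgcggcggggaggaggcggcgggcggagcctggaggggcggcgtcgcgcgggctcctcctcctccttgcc
Rgs4: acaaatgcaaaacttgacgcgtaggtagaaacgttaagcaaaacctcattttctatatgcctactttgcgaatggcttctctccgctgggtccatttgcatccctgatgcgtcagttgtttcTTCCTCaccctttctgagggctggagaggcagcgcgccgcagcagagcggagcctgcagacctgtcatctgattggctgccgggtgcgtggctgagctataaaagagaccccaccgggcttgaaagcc
Rgs5: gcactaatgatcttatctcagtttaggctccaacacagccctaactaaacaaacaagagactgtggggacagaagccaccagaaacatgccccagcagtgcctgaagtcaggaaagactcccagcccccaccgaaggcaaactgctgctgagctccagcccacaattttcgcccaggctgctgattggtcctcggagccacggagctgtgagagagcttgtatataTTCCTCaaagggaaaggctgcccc
Rgs16, Rgs4 and Rgs5 each held 1 match to GAGGAA, beginning 220, 128 and 24 bases before the start, and Rgs10 held none. Of all 32851 windows of this length in the table, 23.3% held GAGGAA, 6.02% CACGTG, 6.75% TGANTCA and 1.55% TGACGTCA. No member window held the E-box, the cAMP response element or the AP-1 motif. The exact letters TATAAA began 31 bases before the start of Rgs4 and were in neither Rgs16, Rgs10 nor Rgs5. They were found on either strand and at any position in 12.4% of windows, so this is not the share for the position in Rgs4. Similar letters were not counted. The window of Rgs10 was richest in G and C of the 4 shown, at 76.4%, against 66.4% for Rgs16, 53.6% each for Rgs4 and Rgs5, and a median of 52.4% over all windows. In the same annotation Rgs1 lies between Rgs13 and Rgs21, Rgs2 between Uchl5 and Rgs13, and Rgs18 between Rgs21 and Brinp3.

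An eWAT array detected 13570 to 15399 of its 25697 probes and a liver array 10626 to 11650. Both arrays of 1 RNA sample correlated at r = 0.991 or more in eWAT and 0.988 or more in liver over all probes. The targeted gene did not follow the genotype in eWAT. The brighter Fgf1 probe had log2 intensities of 9.32 (wild-type) and 9.99 (null) on chow and of 10.78 and 9.28 on HFD, and the other probe was higher in null on both diets, at 7.25 against 6.09 and 7.66 against 7.42. In liver the brighter probe was lower in null on both diets, at 10.31 (wild-type) and 9.36 (null) on chow and at 9.66 and 8.23 on HFD, while the other probe was at 8.17 and 8.29 on chow and at 7.26 and 7.002 on HFD. Whether the probes lie in the deleted part is not given in the sources used here. Groups are accordingly called by their labels. Each of the 4 eWAT samples held markers of other organs. The 7 kept hepatocyte markers had a mean log2 intensity of 13.89 in wild-type HFD against 7.81 to 8.74 in the other eWAT groups, the 10 acinar pancreas markers 12.27 in wild-type HFD and 15.24 in null HFD against 4.85 and 4.87 on chow, and the 10 epididymis and testis markers 14.16 in wild-type chow, 9.92 in null chow, 9.78 in null HFD and 6.21 in wild-type HFD. Of these 10, all were detected in wild-type chow, 9 in each null group and 4 in wild-type HFD, and Defb22, a beta-defensin of the epididymis, read 14.06 in null chow. The adipocyte markers (brightest Adipoq, Lep and Cidec) averaged 9.63 in wild-type chow eWAT and 10.81 to 11.51 in the other 3 groups, with Fabp4 detected in null chow alone. In liver the hepatocyte markers averaged 15.30 to 15.44, and the probe for Alb was detected in neither tissue. Each group is 1 RNA sample, so a comparison of 2 groups cannot be given without a sample that stands apart, and the tissue test is given without each pair.

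A gene is called higher or lower between 2 groups when the means differ at least 2-fold, the arrays do not overlap, and the probe was detected (p-value under 0.05) on both arrays of the brighter group. Values are log2 intensities of the gene's brightest kept probe, normalised within each tissue, and levels are not compared between probes. The 4 comparisons of a tissue share groups, so their values are given side by side. Of the 10 genes, 8 passed the detection filter in eWAT and 6 in liver. Rgs14, an RGS protein best known from hippocampal neurons, and Rgs18, the RGS protein of platelets, were detected on both arrays of no group. The probe means of Rgs14 lay between 4.49 and 4.90, and those of the 2 Rgs18 probes between 4.35 and 4.90.

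**Figure D1:**
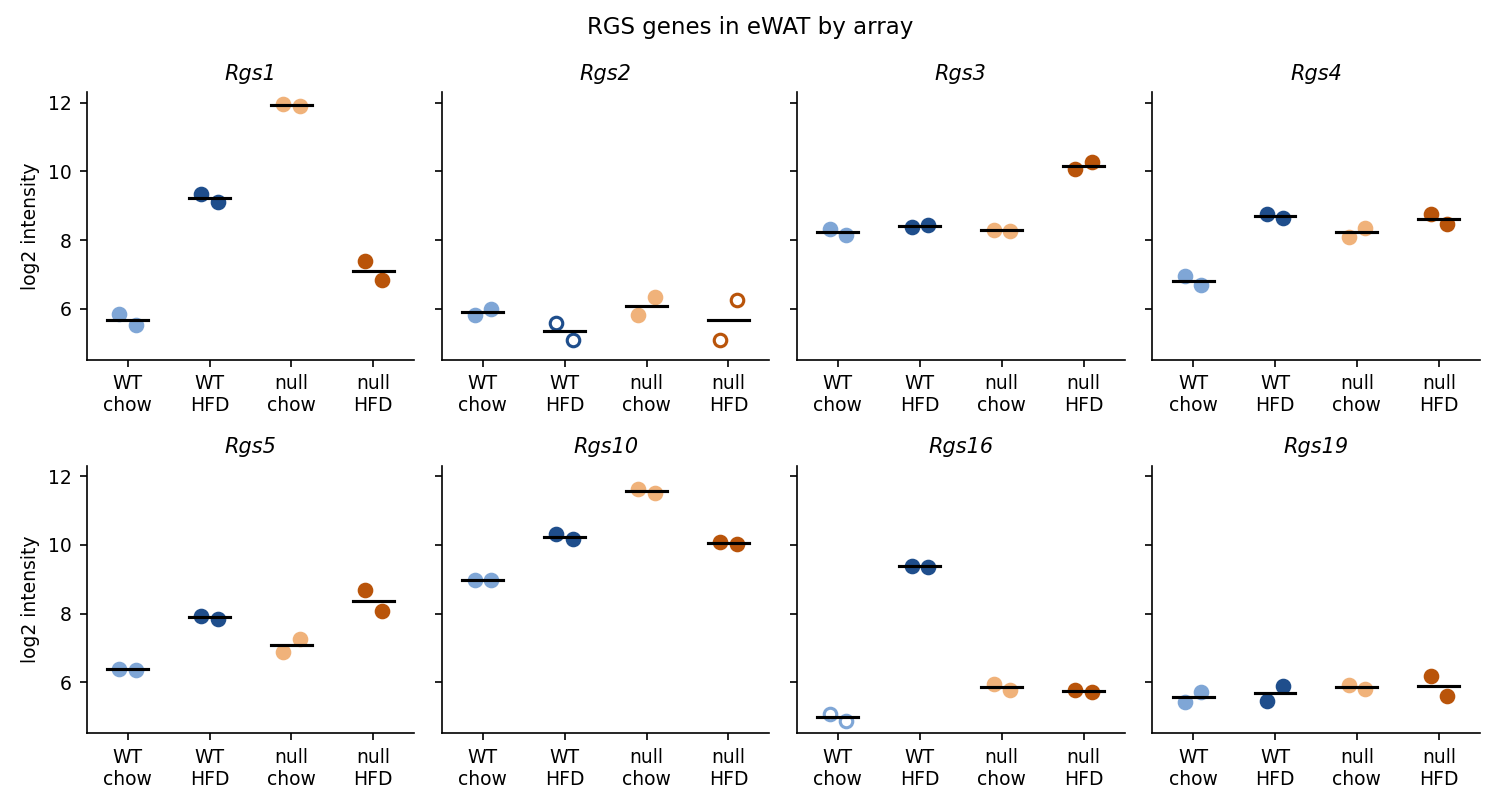
Log2 intensity of the 8 RGS genes that passed the detection filter in eWAT, with a point per array and a bar at the mean of the 2 arrays; open points mark groups in which the probe was not detected on both arrays. Rgs1 and Rgs10 were highest in Fgf1 null chow, Rgs16 in wild-type HFD and Rgs3 in Fgf1 null HFD.

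In eWAT, Rgs1, which damps chemokine receptor signals in lymphocytes and macrophages, had the widest range of the 8 genes. Its wild-type arrays read 5.85 and 5.52 on chow and 9.35 and 9.10 on HFD, and its null arrays 11.96 and 11.89 on chow and 7.39 and 6.83 on HFD. The 4 groups did not overlap: null chow was highest and wild-type chow lowest. HFD was thus higher than chow by 3.54 ± 0.21 (technical SE, n = 2 arrays per group; 11.6-fold) in wild-type and lower by a difference of -4.82 ± 0.21 (28.2-fold) in null eWAT. Null minus wild-type was 6.24 ± 0.21 on chow and -2.12 ± 0.21 on HFD. The other Rgs1 probes kept that order at the top: they averaged 9.98 and 9.68 in null chow and 7.21 and 7.20 in wild-type HFD, and were detected on no array of wild-type chow or null HFD.

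Rgs10, an RGS protein abundant in macrophages and microglia, took the same order of groups in a smaller range. Wild-type arrays read 8.98 and 8.99 on chow and 10.30 and 10.16 on HFD, and null arrays 11.62 and 11.51 on chow and 10.07 and 10.03 on HFD. Arrays of wild-type HFD lay above those of null HFD by little: the mean difference was -0.18 ± 0.11 for null minus wild-type on HFD and was not called. HFD minus chow was 1.25 ± 0.11 in wild-type and -1.51 ± 0.11 in null, and null minus wild-type on chow was 2.58 ± 0.11. The diet difference in null minus that in wild-type came to -8.36 ± 0.29 for Rgs1 and -2.76 ± 0.16 for Rgs10.

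Macrophage markers had the same lowest and highest groups as these 2 genes. The 7 kept markers (brightest Lyz2, Mrc1 and Adgre1) averaged 8.06 and 9.44 in wild-type on chow and HFD and 10.43 and 9.43 in null, with summed intensities of 5170 to 5196, 15382 to 17153, 41371 to 45138 and 15456 to 16401. Itgam and Fcgr1 were the markers not detected in wild-type chow and null HFD. The 6 kept markers of lipid-associated macrophages (brightest Lpl, Gpnmb and Cd9) averaged 8.98, 10.63, 12.26 and 9.94 in the same order, and their summed intensities were 44765 to 50924, 75703 to 76243, 98781 to 100510 and 56983 to 71126. Itgax was not detected outside null chow, and Lpl is also expressed by adipocytes. Of the other leukocyte lists, the means of B cell, mast cell, neutrophil and T cell markers were also highest in null chow, at 7.40, 9.05, 7.03 and 6.84, against 5.65 to 6.76, 6.67 to 8.42, 5.56 to 6.79 and 5.97 to 6.73 in the other groups. The T cell arrays of null chow (6.78 and 6.91) overlapped those of wild-type HFD (6.61 and 6.85). Cd8b1, Cd3g, S100a8 and S100a9 were highest in null chow. Cd3d was highest in wild-type chow, at 7.76 against 6.92 in null chow, and Elane in null HFD, at 6.82 against 5.55. The part of these cells in the values of Rgs1 and Rgs10 was not tested, and in bulk tissue fewer cells of a type and less RNA per cell cannot be told apart.

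**Figure D2:**
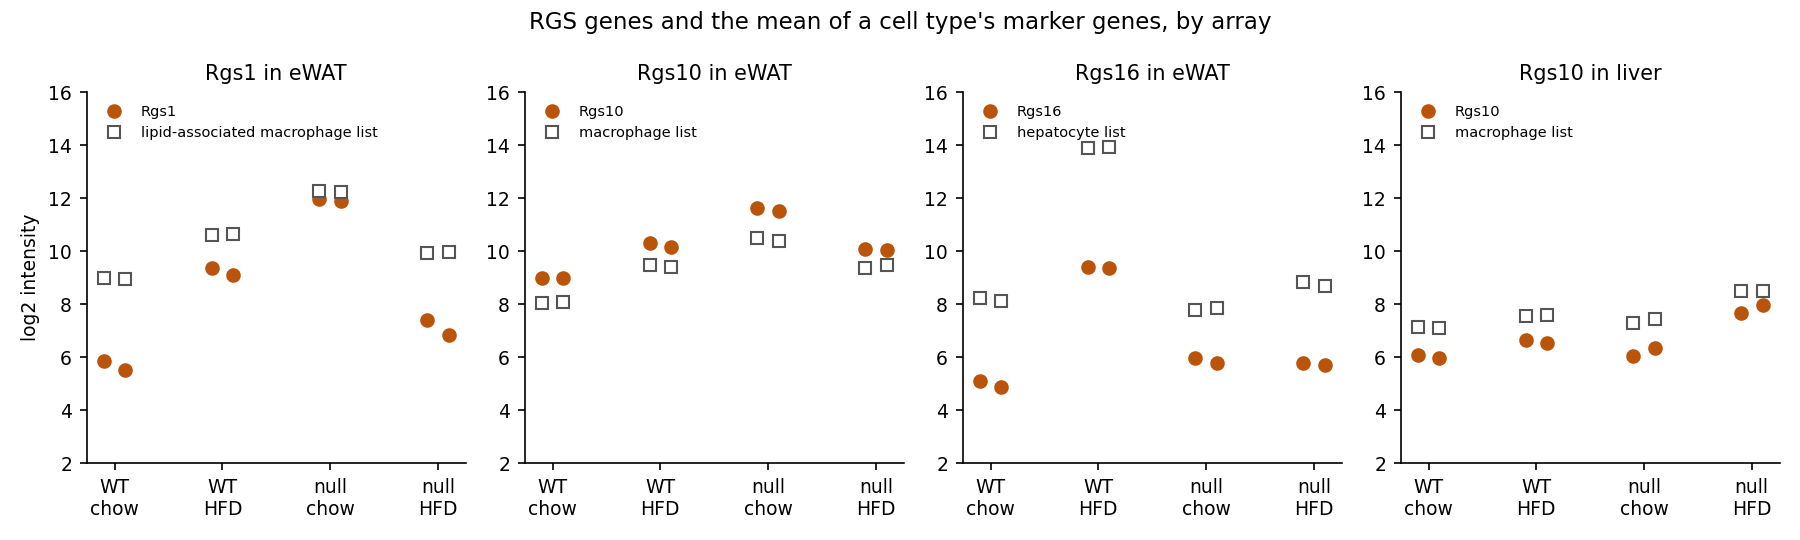
Log2 intensity of an RGS gene (filled circles, a point per array) beside the mean of the kept marker genes of a cell type (open squares, a point per array) in the 4 groups of a tissue. Rgs1 and Rgs10 in eWAT were highest where the macrophage lists were highest, in Fgf1 null chow, and Rgs16 in eWAT where the hepatocyte list was at 13.89, in wild-type HFD.

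Rgs16 was high in 1 eWAT sample. Wild-type arrays read 5.09 and 4.87 on chow, where 1 of the 2 detected it, and 9.40 and 9.37 on HFD, while null arrays read 5.96 and 5.77 on chow and 5.78 and 5.71 on HFD. Wild-type HFD stood above all other arrays, and both null groups overlapped each other. HFD minus chow was 4.40 ± 0.13 in wild-type and -0.12 ± 0.13 in null, and null minus wild-type on HFD was -3.64 ± 0.13. The same wild-type HFD sample held the hepatocyte markers: 6 of the 7 kept were called higher between the wild-type diets, with a median difference of 6.70, and 6 of 7 were lower in null than wild-type on HFD, with a median of -5.99. With all 16 arrays normalised together, Rgs16 in that sample was 2.44 below wild-type HFD liver, and 6 of the 7 hepatocyte markers were 0.86 (Ttr) to 3.32 (Cps1) below it. The remaining marker, Cyp2e1, was 0.62 below it but read 15.03 in wild-type chow eWAT as well, where the other 6 lay between 4.87 and 7.67. The part of liver RNA in the Rgs16 value of that sample was not tested.

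Rgs4 and Rgs5, R4 members known from neurons and smooth muscle and from pericytes, were both lowest in wild-type chow eWAT. Rgs4 read 6.95 and 6.68 there, against 8.75 and 8.66 in wild-type HFD, 8.10 and 8.37 in null chow and 8.76 and 8.48 in null HFD. Wild-type chow was below every other array, and the 2 HFD groups overlapped. Rgs5 read 6.40 and 6.37 (chow) and 7.94 and 7.86 (HFD) in wild-type, and 6.89 and 7.25 (chow) and 8.69 and 8.07 (HFD) in null, so both HFD groups lay above both chow groups. HFD minus chow was 1.89 ± 0.16 in wild-type and 0.39 ± 0.16 in null for Rgs4, and 1.52 ± 0.21 and 1.31 ± 0.21 for Rgs5. Rgs4 was also higher in null than wild-type on chow, by 1.42 ± 0.16. Without background correction and in the authors' normalised values the 2 Rgs5 differences and this Rgs4 difference were under 2-fold. The lowest values were 0.83 for Rgs5 in wild-type and 0.87 for Rgs4. The Rgs5 difference in null was also under 2-fold without replicate 1, where it was lowest, at 0.82.

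The 10 smooth muscle and pericyte markers (brightest Acta2, Mcam and Myh11) went both ways in wild-type eWAT. On HFD 4 were called higher and 4 lower, so that the median difference was 0.81 while the list's mean was 8.54 against 8.75 on chow. Chosen after their values were seen, the 4 higher were Mcam, Pdgfrb, Abcc9 and Cspg4, by 1.59, 1.45, 1.26 and 1.10, and the 4 lower were Myh11, Cnn1, Tagln and Acta2, by -3.58, -2.37, -1.63 and -1.59. In null eWAT 0 of the 10 were higher on HFD and 1 was lower, and the endothelial markers averaged 8.57 in wild-type chow and 9.60 to 10.03 in the other groups. The epididymis and testis markers were at 14.16 in the wild-type chow sample, and their part in these values was not tested.

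Rgs3, a longer R4 member with several transcript forms, differed in null HFD eWAT on 1 probe. That probe read 8.31 and 8.15 on chow and 8.39 and 8.44 on HFD in wild-type, and 8.29 and 8.28 on chow and 10.06 and 10.28 on HFD in null. HFD minus chow was 1.88 ± 0.13 in null and null minus wild-type was 1.75 ± 0.13 on HFD, while the other 3 groups lay within 0.19 of each other. The other 3 kept Rgs3 probes, of 8 on the array, did not show it: their null HFD means were 6.05, 5.88 and 6.21 and their null chow means 6.29, 6.04 and 6.27. With the mean of the kept probes these differences were 0.36 and 0.53 and were not called. The sample with the high reading was also the one with the acinar pancreas markers at 15.24, against 12.27 in wild-type HFD, and their part was not tested.

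Rgs2, which acts on Gq, and Rgs19, a member of the RZ subfamily, were dim. Rgs2 means ranged from 5.34 to 6.09 and Rgs19 means from 5.57 to 5.90, and none of their differences was called.

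Beside the background, 5 of 8 members were called in wild-type eWAT between the diets, all higher on HFD, where 33.3% of all 11935 genes and unnamed probes were called. Of all, 16.6% were higher and 16.7% lower on HFD there, and 4.18% and 6.06% in null. The members' median difference was 1.38 and that of all genes 0.11. In null eWAT 4 of 8 were called between the diets, 2 higher (Rgs3 and Rgs5) and 2 lower (Rgs1 and Rgs10), against 10.2% of all, with medians of -0.04 and -0.03. By genotype, which chose the set, 3 of 8 were called on chow (Rgs1, Rgs10 and Rgs4, all higher in null) against 27.4% of all (13.8% higher and 13.6% lower), and 3 of 8 on HFD (Rgs3 higher, Rgs1 and Rgs16 lower) against 11.3% (5.27% and 6.03%).

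**Figure D3:**
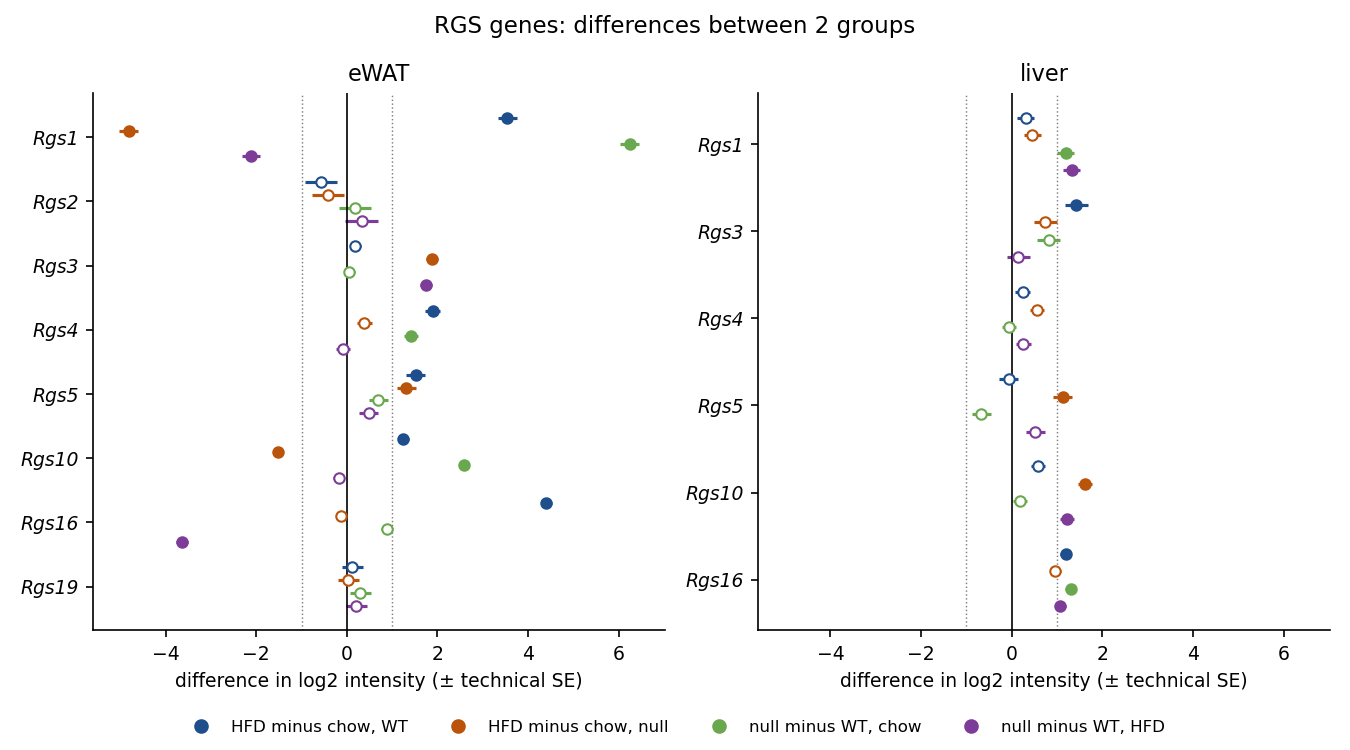
Differences in log2 intensity of the RGS genes between 2 groups in eWAT (left) and liver (right), with the technical SE as bars; filled points were called, open points were not, and dotted lines mark 2-fold. In eWAT the 2 diet differences of Rgs1 and of Rgs10 lie on opposite sides of 0, and in liver the called points all lie above 0.

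In liver Rgs16, the glucose-induced member, was highest in null HFD. Wild-type arrays read 9.69 and 9.87 on chow and 11.01 and 10.92 on HFD, and null arrays 11.07 and 11.08 on chow and 12.08 and 11.999 on HFD. Wild-type chow was lowest, wild-type HFD and null chow were 0.11 apart, and null HFD was highest. HFD minus chow was 1.19 ± 0.12 in wild-type and 0.96 ± 0.12 in null, and null minus wild-type was 1.30 ± 0.12 on chow and 1.07 ± 0.12 on HFD. The hepatocyte markers of these livers were near the top of the scale (Hpx at 15.97 in both HFD groups, where the brightest probe of an array read 15.99), so they show little of a difference between livers, and their part was not tested. The difference by genotype on HFD was under 2-fold with median scaling, with all 16 arrays normalised together and in the authors' normalised values (lowest 0.92), and the diet difference in wild-type in the last of these (0.91).

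**Figure D4:**
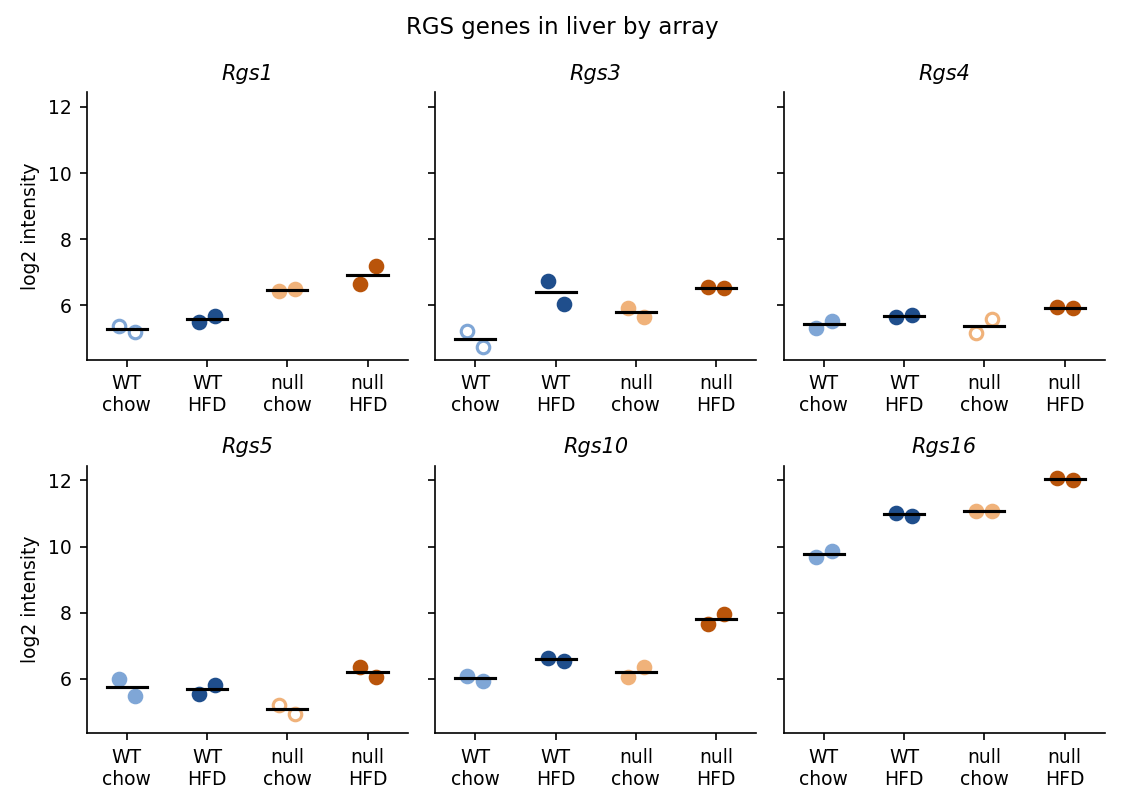
Log2 intensity of the 6 RGS genes that passed the detection filter in liver, with a point per array and a bar at the mean of the 2 arrays; open points mark groups in which the probe was not detected on both arrays. Rgs16 spans 9.69 to 12.08, and the other 5 genes lie below 8.

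Rgs1 in liver was near the limit of detection. Wild-type arrays read 5.37 and 5.19 on chow, where 1 of 2 detected it, and 5.51 and 5.67 on HFD, and null arrays 6.45 and 6.49 on chow and 6.64 and 7.19 on HFD. Both null groups lay above both wild-type groups, by 1.19 ± 0.19 on chow and 1.33 ± 0.19 on HFD. The other 2 Rgs1 probes were detected in null HFD only, at 5.60 and 5.71, and not in null chow, at 4.85 and 4.77. The diet differences of 0.31 and 0.45 were not called. Without background correction, in the authors' normalised values and with the mean of the probes the genotype differences were under 2-fold, at lowest 0.50 and 0.65.

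Rgs10 in liver was also highest in null HFD. Wild-type arrays gave 6.08 and 5.95 (chow) and 6.64 and 6.55 (HFD), and null arrays 6.05 and 6.36 (chow) and 7.67 and 7.97 (HFD). Null HFD lay above all other arrays, by 1.62 ± 0.16 over null chow and 1.23 ± 0.16 over wild-type HFD. Without background correction the difference over null chow was 0.98. The difference over wild-type HFD was under 2-fold there and in the authors' normalised values, at lowest 0.79. The same sample had the highest leukocyte markers of the 4 livers. Macrophage markers averaged 8.48 there against 7.11 to 7.58 elsewhere, with summed intensities of 3491 to 3586 against 1248 to 1864 and only Itgam not detected. Lipid-associated macrophage markers averaged 8.71 against 6.25 to 6.61, neutrophil markers 6.92 against 5.11 to 5.47, with all 7 detected, and platelet markers 5.90 against 4.90 to 5.10. Their part in the Rgs10 and Rgs1 values of that liver was not tested.

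The remaining liver members were dim. The brightest Rgs3 probe was not detected in wild-type chow and averaged 6.40 in wild-type HFD, at least 2.21-fold higher on that probe, and without replicate 1, without background correction and with the mean of its probes Rgs3 was not called. Another kept Rgs3 probe was detected on both arrays of both groups and averaged 5.62 on chow and 5.49 on HFD, and one more averaged 5.26 and 5.25. Rgs5 averaged 6.21 in null HFD and 5.08 in null chow, where 1 of 2 arrays detected it, a difference of 1.13 ± 0.21 that was under 2-fold without background correction and in the authors' normalised values (lowest 0.45). The 7 kept smooth muscle and pericyte markers were also highest in null HFD liver, at 6.32 against 5.75 to 5.83, with summed intensities of 849 to 858 against 457 to 575 and Acta2 at 8.47 against 5.91 to 7.18. Myh11, Tagln, Cnn1 and Notch3 were not detected there, and the part of these cells in the Rgs5 value was not tested. Rgs4 means lay between 5.38 and 5.94 with no difference called. Called members were 2 of 6 between the diets in wild-type liver (Rgs16, and Rgs3 on its brightest probe) and 2 of 6 in null liver (Rgs10 and Rgs5), against 5.82% and 8.72% of all 8894 genes and unnamed probes, all higher on HFD. Of all, HFD had 3.32% higher and 2.51% lower in wild-type liver, and 5.93% and 2.8% in null liver. The members' medians were 0.44 and 0.85, with all-gene medians of 0.0036 and 0.02. By genotype, which chose the set, 2 of 6 were called on chow (Rgs1 and Rgs16) and 3 of 6 on HFD (Rgs1, Rgs10 and Rgs16), all higher in null. Rgs1 and Rgs16 are the genes whose genotype differences in liver picked the set, so these counts are a description only. Of all genes and unnamed probes, 2.16% and 5.04% were called (1.29% higher and 0.866% lower on chow, 3.36% and 1.68% on HFD).

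Tissue was not used to choose the genes. Its difference was tested over 4 pairs of RNA samples (liver against eWAT of the same genotype and diet). The pairs differ from each other in genotype or diet, so they are not replicates of the same condition. The test used limma with Benjamini-Hochberg adjustment, all 16 arrays normalised together. Rgs16 was higher in liver and Rgs10, Rgs3 and Rgs4 were lower, 4 of 8 members, where 29.5% of all 12206 genes and unnamed probes were called, 13.2% higher in liver and 16.3% lower. Rgs16 was higher by 5.18 ± 0.73 (SE, n = 4 pairs; adjusted p = 0.00487 from limma), in 4 of 4 pairs and by 2.44 to 6.88. The pair on the low side was wild-type HFD, and without it the difference was 6.10 ± 0.36. Rgs10 differed by -2.30 ± 0.53 (limma, adjusted p = 0.0222), lower in liver in 4 of 4 pairs, by -4.17 to -1.06. Without the wild-type HFD pair it was not called, at -2.28 ± 0.66 (limma, adjusted p = 0.0645).

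Rgs3 differed by -1.62 ± 0.36 (limma, adjusted p = 0.0201) and Rgs4 by -1.16 ± 0.32 (limma, adjusted p = 0.0378), each lower in liver in 4 of 4 pairs. Both calls were lost without some of the pairs: Rgs3 was not called without wild-type chow, null chow or null HFD (adjusted p from 0.0538 to 0.0741), nor with the mean of its probes, at -0.17, and Rgs4 was not called without wild-type HFD, null chow or null HFD (0.119 to 0.137), nor without background correction. Rgs1 was lower in liver in 2 of 4 pairs and higher in the other 2, with a mean difference of -1.22 ± 0.96 and limma's adjusted p = 0.354. Rgs5 and Rgs19 did not pass, at -0.47 and 0.22, although with arrays scaled to a common median Rgs5 was called at -1.08, and Rgs19 was detected on 2 of 8 liver arrays. Rgs2 did not pass either and was detected on 0 of 8 liver arrays, so neither a fold nor a direction is given for it.

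**Figure D5:**
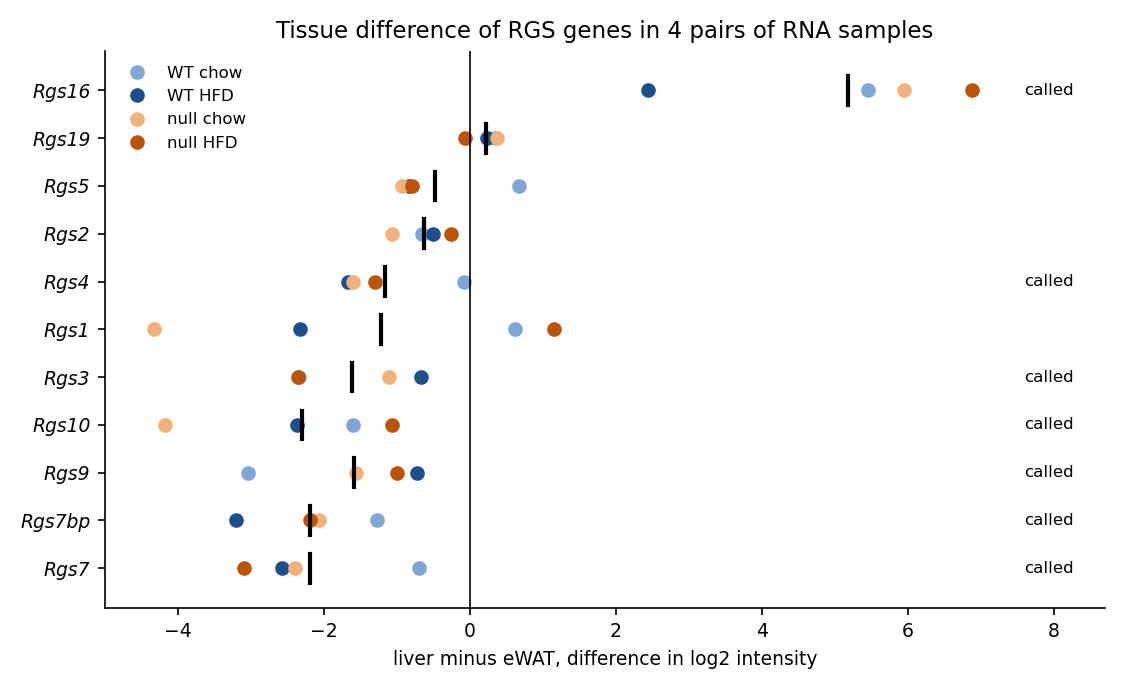
Difference in log2 intensity between liver and eWAT for 8 members and for Rgs7, Rgs7bp and Rgs9, with a point per pair of RNA samples of the same genotype and diet and a bar at the fitted mean; genes marked as called passed an adjusted p of 0.05 and 2-fold in limma. The 4 points of Rgs16 lie between 2.44 and 6.88 and those of Rgs1 on both sides of 0. Rgs2, Rgs7 and Rgs9 were detected on 0 of 8 liver arrays.

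Of the R7 subfamily, outside the chosen set, Rgs7 and Rgs9 were lower in liver. Rgs7 (-2.19 ± 0.42, adjusted p = 0.0125 from limma), its membrane anchor Rgs7bp (-2.18 ± 0.34, adjusted p = 0.00627) and Rgs9 (-1.58 ± 0.42, adjusted p = 0.033) were lower in liver in 4 of 4 pairs each, as was their partner Gnb5 (-3.99 ± 0.38, adjusted p = 0.00163). Rgs7, Rgs9 and Gnb5 were detected on 0 of 8 liver arrays and all 8 eWAT arrays, so they passed the detection filter through eWAT alone. A lower reading in liver was thus close to fixed in advance, and their p-values are a description only. As bounds, eWAT was at least 2.28-fold, 1.37-fold and 9.06-fold higher, and the bound of Rgs9 is under the 2-fold of a call. Without the null chow pair Rgs7 and Rgs9 were not called (adjusted p = 0.0596 and 0.108), nor was Rgs9 without null HFD (0.0697). In eWAT Rgs7 read 5.84 and 5.89 in wild-type chow and 7.48 to 8.62 on the other 6 arrays, so that wild-type chow lay below all others. Rgs7bp averaged 10.46 in wild-type HFD against 8.40 to 9.24 in the other groups. Rgs9 ran the opposite way, at 8.10 in wild-type chow and 5.73 to 6.92 elsewhere, a difference of -2.37 ± 0.18 between the diets in wild-type. The wild-type chow sample, low in Rgs7 and high in Rgs9, is the one with the epididymis and testis markers at 14.16, and the wild-type HFD sample, high in Rgs7bp, the one with the hepatocyte markers at 13.89; their part in these values was not tested. Gnb5 was higher on HFD in wild-type by 1.65 ± 0.12 and lower in null than wild-type on HFD, by -1.25 ± 0.12. Of the other listed Rgs genes, Rgs6, Rgs12, Rgs17 and Rgs9bp were measured in eWAT with no difference called, and in the tissue test Rgs12 was at -1.10 (limma, adjusted p = 0.0542). The whole list of other RGS genes, which also holds the axins, had 10 genes tested by tissue. Of these 0 were higher in liver and 4 lower, against 13.2% and 16.3% of all genes, and the 4 include Rgs7 and Rgs9, not detected in liver. The fourth was Axin2, at -1.34 ± 0.25.

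Diet was tested over the 4 RNA samples of each tissue in limma with genotype as a covariate, which leaves 1 residual degree of freedom. That degree of freedom holds how the diet difference varied with genotype, not a spread between replicate samples. The test called 0 genes (0%) in eWAT and 0 (0%) in liver, with 197 and 1177 at an unadjusted p under 0.05. In liver the fitted HFD minus chow was 1.08 ± 0.20 for Rgs16, 1.10 ± 0.31 for Rgs10 and 1.08 ± 0.25 for Rgs3, with limma adjusted p-values of 0.275, 0.339 and 0.299. In eWAT Rgs5 differed by 1.41 ± 0.41 (limma, adjusted p = 0.998). The smallest adjusted p that limma gave any gene was 0.998 in eWAT and 0.134 in liver. On simulated data the eWAT diet test passed no changed gene of any size, so a gene that did not pass it is not shown to be unchanged.

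The rest of the pathway was described from lists of its parts. Receptors of leukocytes that couple to Gi or Gq, the kind of input that RGS proteins damp, were called higher in null than wild-type eWAT on chow in 13 of 17 cases, where 13.8% of all genes were, led by P2ry6 (2.76 ± 0.13), Cxcr4 (2.65 ± 0.25), Gpr183 (2.55 ± 0.20) and Gpr65 (2.17 ± 0.17), with a list median of 1.65 against 0.07 for all genes. Between the diets 9 of 17 were higher on HFD in wild-type (16.6% of all genes), with Cxcr4 at 2.23 ± 0.25, and 7 were lower and 1 higher on HFD in null (6.06% and 4.18% of all), where Ccr6 was at -1.78 ± 0.17. In liver 5 of 9 were higher on HFD in null (5.93% of all), Fpr2 by 2.02 ± 0.13 and P2ry6 by 1.44 ± 0.15, and 0 of 9 in wild-type (3.32%). Without background correction or in the authors' normalised values the counts were lower, down to 6, 3, 1 and 2 in the same 4 comparisons. In the same comparisons macrophage markers were called higher in 6 of 7 and 5 of 7 cases, lower in 3 of 7, and higher in 3 of 6. In the tissue test 1 of 17 was higher and 3 lower in liver, against 13.2% and 16.3% of all. One of the lower was Hcar2 (limma, adjusted p = 0.00427), detected on 0 of 8 liver arrays and all 8 eWAT arrays, so it passed the detection filter through eWAT alone. As a bound, eWAT was at least 2.16-fold higher. Its namesake Hcar1, on the list of receptors of fat and liver cells, differed by -3.40 ± 0.41, so Hcar2 is not taken as a mark of leukocytes in fat.

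Subunits of the G proteins themselves were described next. For comparison, the shares of all genes called were 16.6% up and 16.7% down with HFD in wild-type eWAT, 4.18% and 6.06% in null eWAT, 13.8% up in null on chow, and 13.2% higher and 16.3% lower in liver by tissue. Of 10 alpha subunits in eWAT, 2 were called lower on HFD and 0 higher in wild-type, and 0 in either direction in null. In the tissue test 1 was higher in liver, Gnat1 by 4.56 ± 0.28 (limma, adjusted p = 0.000683), and 3 were lower. Of the 2 Gnat1 probes, only 1 was detected on any liver array. Of 14 beta and gamma subunits 5 were higher on HFD in wild-type and 5 in null over wild-type on chow, among them the leukocyte and cone gamma subunit Gngt2 at 1.77 ± 0.15 and 2.38 ± 0.15, and 0 were called between the diets in null. Gnb4 was higher by 2.26 ± 0.14 on HFD in wild-type. Of 11 effectors, 3 were called lower between the diets in null eWAT, while wild-type had 3 higher and 2 lower, and by tissue 1 was higher in liver and 3 lower. Other regulators of G proteins and receptors (receptor kinases, arrestins and the like) were called in wild-type eWAT in 5 of 9 cases between the diets, 4 higher on HFD and 1 lower, with 0 called in null and 0 of 5 in liver, and by tissue 0 were higher and 2 lower. In the tissue test 0 beta or gamma subunits were higher in liver and 5 of 14 were lower, with Gng7 at -2.43 ± 0.27 (limma, adjusted p = 0.00237). Receptors of fat and liver cells separated by tissue in both directions, 4 of 12 higher in liver and 7 lower, with the glucagon receptor Gcgr at 5.32 ± 0.29 and the fatty acid receptor Ffar4 at -4.54 ± 0.19 (limma, adjusted p = 0.000657 each). In wild-type eWAT 5 of these 12 were higher on HFD and 0 lower, and in null 1 was higher and 1 lower. Several of these eWAT counts fell without background correction and in the authors' normalised values. In wild-type between the diets, alpha subunits lower went from 2 to 0 in both, beta and gamma subunits higher from 5 to 4 and 3, effectors from 3 higher and 2 lower to 1 and 1 in both, other regulators higher from 4 to 1 in both, and receptors of fat and liver cells from 5 to 3 in both, although median scaling gave 8 of the last. Effectors lower in null went from 3 to 1 and 0, and beta and gamma subunits higher in null over wild-type on chow from 5 to 3 in both.

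Glucose-responsive targets of the transcription factor ChREBP (a sugar-sensing factor for which Rgs16 is a known target) were called higher on HFD in liver in 8 of 17 cases in each genotype, with 3 lower in wild-type and 1 lower in null, where 3.32% and 5.93% of all genes were higher and 2.51% and 2.8% lower. Thrsp was higher by 5.23 ± 0.15 and 3.04 ± 0.15, Elovl6 by 2.51 ± 0.17 and 2.17 ± 0.17, and Pklr by 2.00 ± 0.16 and 1.95 ± 0.16, in wild-type and null. By genotype, where Rgs16 differed on both diets, 1 of 17 was higher in null on each diet (1.29% and 3.36% of all): Thrsp on chow by 2.44 ± 0.15 and Fgf21 on HFD by 2.47 ± 0.15. In eWAT 10 of 17 were higher on HFD in wild-type (16.6% of all), and on HFD 10 were lower and 2 higher in null than wild-type (6.03% and 5.27% of all), the contrast in which Rgs16 and the hepatocyte markers were lower. The wild-type HFD sample of both contrasts held the hepatocyte markers at 13.89. Slc2a2, a target higher in liver by tissue, read 8.92 in that sample and 4.99 in wild-type chow eWAT. The part of liver RNA in these counts was not tested. Immediate-early genes were called higher in 9 of 19 cases on HFD in wild-type eWAT and in 9 of 19 in null over wild-type on chow, where Atf3 differed by 4.72 ± 0.16, against 16.6% and 13.8% of all genes. On HFD in null 4 were lower and 0 higher (6.06% and 4.18% of all), and the 9 in null over wild-type on chow were 7 without background correction and 6 in the authors' values. By tissue 7 ChREBP targets were higher in liver and 1 lower, and 1 immediate-early gene was higher and 7 lower, against 13.2% and 16.3% of all. No member of any of these lists passed the diet test of either tissue, which in eWAT shows nothing about them. In liver it shows little about differences near 2-fold.

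The genes most alike to Rgs1 over the 8 group means, by the root mean square difference of log2 levels after each gene was centred within each tissue, were Atf3 (0.45), Mmp12 (0.47), Dpep2 (0.61), Trem2 (0.65) and Hk3 (0.68), where the median of 8623 genes was 1.72. In eWAT Mmp12 ran 5.51 and 9.18 in wild-type (chow, HFD) and 12.01 and 8.10 in null, beside 5.68, 9.23, 11.93 and 7.11 for Rgs1. Mmp12 and Trem2 are on the lipid-associated macrophage list, Atf3 on the immediate-early list, and the points share their RNA samples. Those most alike to Rgs16 were Kng2 (0.46), Apoa5 (0.49), Slc2a2 (0.50), Serpina10 (0.50) and Clec4f (0.51), against a median of 1.33. Apoa5 averaged 8.50 in wild-type HFD eWAT and 4.63 to 4.64 in the other eWAT groups, and 10.05 to 11.24 in liver. Each of these genes was highest in eWAT in wild-type HFD, the sample with the hepatocyte markers. In liver on HFD Rgs16 read 10.97 in wild-type and 12.04 in null, and Apoa5 10.05 and 11.24. The others differed less: Slc2a2 11.59 and 11.61, Serpina10 13.24 and 13.25, Kng2 12.54 and 12.32, Clec4f 9.93 and 9.81. On chow all were higher in null, Kng2 the most (11.69 and 12.18), beside 9.78 and 11.08 for Rgs16. Kng2, Apoa5, Serpina10 and Slc2a2 (also on the ChREBP list) are known as hepatocyte genes and Clec4f as a marker of Kupffer cells in mice.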

How the data were processed

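Total RNA was measured on Illumina bead arrays. The authors deposited non-normalised bead intensities and a detection p-value per probe, made in GenomeStudio per the submitters' processing notes, and a second table of normalised intensities whose method is not given in the sources used here. Of 25697 probes, 23978 carry 1 gene symbol in the platform annotation of 2016. The other 1719 carry none or more than 1 and are called unnamed. The deposited intensities were background-corrected and quantile-normalised on the log2 scale with limma 3.58.1 in R 4.3.3 (neqc, offset 16), the 8 arrays of each tissue together, and all 16 together for the tissue test. Probes were kept where some group detected them on its 2 arrays (p-value under 0.05), 15839 in eWAT, 11580 in liver and 16251 over both, and a gene took its brightest kept probe.

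Both arrays of a group were averaged to 1 RNA sample before each test. Tissue was tested with genotype and diet as a block (3 residual degrees of freedom) and diet with genotype as a covariate (1 residual degree of freedom), by limma with Benjamini-Hochberg adjustment over all genes, at an adjusted p under 0.05 and 2-fold. With 1 RNA sample per group, no p-value or standard error of these tests measures spread between replicate samples of the same tissue, genotype and diet. The residual of the tissue test holds how the tissue difference varied with genotype and diet. That of the diet test holds how the diet difference varied with genotype. Spread between mice cannot be told apart from these. Comparisons of 2 groups have a technical standard error and no test, and the number of arrays limits their precision. A probe detected on no array of the dimmer group was given an "at least" fold against the dimmest signal that each array still detected. Scripts were tested on simulated data.

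The RGS genes, and the lists of marker and pathway genes, were chosen with earlier results of these data known. All Rgs genes were named, then up to 4 called genes of each pathway list with the largest differences in a comparison, up to 3 of each marker list by brightness, and the 5 genes most alike to Rgs1 and to Rgs16. Promoter letters came from RefSeq. Alternatives changed the background correction, scaling, joint normalisation, table, probe rule, fold minimum, detection filter and the arrays or pairs used.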

Additional observations from a re-analysis of the deposited data

Results flagged for a closer look

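Some differences had opposite signs in 2 settings with all arrays of each group apart. The difference between the 2 settings was not tested, because each group is 1 RNA sample, and settings of 1 tissue share groups.

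Rgs1 in eWAT was higher on HFD in wild-type by 3.54 and lower on HFD in null, at -4.82. By genotype it was 6.24 higher in null on chow and differed by -2.12 on HFD. In liver the genotype difference of Rgs1 on HFD was 1.33, against the -2.12 of eWAT.

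Rgs10 in eWAT was higher on HFD in wild-type by 1.25 and differed by -1.51 in null. In null liver its diet difference was 1.62, against the -1.51 of eWAT. Rgs16 on HFD differed by genotype by -3.64 in eWAT and by 1.07 in liver. Values of macrophage and hepatocyte markers in these samples are given beside the results above.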

How the results depend on the processing

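All 24 called differences of members kept their direction under every alternative, and 11 were called under all 9. The 1.5-fold minimum only loosens the call, and dropping the detection filter left all 24 called, so these 2 alternatives were no hurdle. Members called in liver between the wild-type diets, between the null diets, by genotype on chow and by genotype on HFD (2, 2, 2 and 3) became 1, 0, 1 and 1 without background correction and 1, 1, 1 and 0 in the authors' normalised values. With the mean of probes the wild-type diets and genotype on chow gave 1 each. A 1.5-fold minimum gave 5 in eWAT by genotype on chow, 4 between the diets in null liver and 4 by genotype in liver on chow. Without 1 array of each group the wild-type liver count was 1 to 2. In the tissue test 2 to 4 members were called when a pair or an array was left out, and 2263 genes in place of 3595 were called without background correction. Rgs4 was not called there without background correction (-0.70), in the authors' values (-0.74), with no detection filter or without replicate 1. Liver diet calls were 3 and 35 without replicate 1 and 2, in place of 0. Counts over all genes in the 2-group comparisons were 68 to 2437 without background correction, 70 to 2338 in the authors' values and 901 to 6240 at 1.5-fold. By genotype in chow liver, joint normalisation gave 327 and leaving out an array 310 or 400, in place of 192. With scaling to a common median, the median difference of all genes was 0.30 in place of 0.11, -0.12 in place of -0.03 and 0.27 in place of 0.07 in eWAT (wild-type diets, null diets, genotype on chow). In liver it was 0.26 in place of 0.0036 and 0.18 in place of 0.02 (wild-type and null diets). Higher against lower calls then became 2436 and 1824 in place of 1978 and 1993, 382 and 909 in place of 499 and 723, 2136 and 1410 in place of 1644 and 1622, 597 and 122 in place of 295 and 223, and 716 and 170 in place of 527 and 249. In liver by genotype on chow they became 149 and 50 in place of 115 and 77. The cause of these shifts was not tested. The tissue test pairs RNA samples by genotype and diet. By replicate number no paired analysis was possible because these numbers mark technical arrays of 1 RNA sample, which were averaged before each test.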
